A study of Mus musculus with 6 samples.

Results

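Untreated wild-type macrophages were ranked by how much of their RNA came from 7 interferon-stimulated genes, and the upper end of that ranking was compared with its lower end for all other genes. The score of a cell was the sum of its unique molecular identifiers (UMIs, each counting 1 captured transcript) for Ifit1, Ifit2, Ifit3, Isg15, Rsad2, Usp18 and Irf7, divided by all its UMIs. Of the 1362 cells in the data, 239 came from the untreated wild-type sample and 238 of these had at most 25000 UMIs. The cells were chosen by the measured UMIs of these genes, with 79 score-high cells (the third of the cells with the highest scores), 80 score-middle cells and 79 score-low cells. The differences of the 7 genes between these cells therefore describe the split and are not a finding.

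The cells were mouse bone marrow-derived macrophages, grown with medium conditioned by L929 cells, sorted singly into plates and profiled by MARS-seq, in which every well is barcoded and UMIs are counted. The study compared wild-type with Rad21-/- cells, which lose a subunit of the chromosome-looping complex cohesin, untreated or after 2 or 8 h of lipopolysaccharide (LPS, a bacterial stimulus) at 10 ng/ml. Both genotypes carried creERT2 on both Rosa26 alleles and both received 200 nM 4-hydroxy-tamoxifen 96 h after plating, so the wild-type cells had met the same Cre and drug, and experiments were done on day 7. Each of the 6 conditions was 1 sample and no source used here gives the number of mice behind it. Cells of 1 sample are not replicates, so no p-value is given. Intervals are exact 95% intervals, and they cover the error of counting UMIs only.

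Macrophages that have met no microbe still respond to small amounts of type I interferon, a state called tonic signalling. Interferon binds the receptor chains Ifnar1 and Ifnar2, the kinases Jak1 and Tyk2 phosphorylate STAT proteins such as Stat2, and these join Irf9 in the factor ISGF3, which binds the interferon-stimulated response element in front of antiviral genes. Irf7 is both a product of this pathway and an activator of further interferon genes, Isg15 is a ubiquitin-like modifier that Usp18 removes from proteins, and the Ifit proteins and Rsad2 (viperin) block viral RNA and replication.

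The core of that response element can be written as GAAA, any 2 bases and GAAA. Each stretch below lies upstream of a RefSeq start of its gene. Shown are 4 score genes, 3 others higher in score-high cells (Stat2, Irgm2 and Trim30a), the chemokine gene Cxcl10 and Spp1, which was lower. Only genes that held the motif are shown, so the stretches do not tell how common it is among the higher genes. A gene can have several starts, and the Ifit3 stretch lies inside the span of the gene, which begins at chr19:34583119. The stretches are given 5′ to 3′ on the gene's strand in build GRCm38.p6. Capitals mark the motif on either strand, which reads TTTC, any 2 bases and TTTC on the opposite one.
Isg15, minus strand, chr4:156200835-156200936: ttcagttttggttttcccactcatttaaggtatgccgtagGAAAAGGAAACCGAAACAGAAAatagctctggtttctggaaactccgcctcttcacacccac
Ifit1, plus strand, chr19:34640745-34640853: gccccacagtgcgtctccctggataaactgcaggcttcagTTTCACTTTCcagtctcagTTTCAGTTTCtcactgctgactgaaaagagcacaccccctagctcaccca
Ifit3, plus strand, chr19:34583333-34583456: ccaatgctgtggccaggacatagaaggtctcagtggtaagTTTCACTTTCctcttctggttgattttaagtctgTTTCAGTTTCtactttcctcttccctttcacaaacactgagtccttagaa
Rsad2, minus strand, chr12:26456523-26456612: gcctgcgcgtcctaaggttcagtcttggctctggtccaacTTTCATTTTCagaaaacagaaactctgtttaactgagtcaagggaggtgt
Stat2, plus strand, chr10:128270248-128270325: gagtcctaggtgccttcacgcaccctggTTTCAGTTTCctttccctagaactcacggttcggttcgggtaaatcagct
Irgm2, plus strand, chr11:58214873-58214962: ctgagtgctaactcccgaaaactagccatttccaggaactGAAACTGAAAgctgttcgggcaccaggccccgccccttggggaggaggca
Trim30a, minus strand, chr7:104465194-104465269: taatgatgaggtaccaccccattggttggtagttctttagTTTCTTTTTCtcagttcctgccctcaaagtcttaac
Cxcl10, minus strand, chr5:92349053-92349139: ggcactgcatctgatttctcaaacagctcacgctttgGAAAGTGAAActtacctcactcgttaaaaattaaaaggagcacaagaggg
Spp1, plus strand, chr5:104434914-104435003: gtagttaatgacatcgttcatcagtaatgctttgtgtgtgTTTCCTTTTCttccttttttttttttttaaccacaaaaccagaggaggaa

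Isg15 had 3 overlapping copies in a row and Ifit1 and Ifit3 had 2 each, while the other genes shown had 1. The promoter table held 32851 starts of 27025 genes. A gene counted if the 250 bases before any of its starts held the letters. This was so for 936 of the 27025 genes (3.46%), so a match is a description and does not show a bound site. The gamma-activated site, TTC, any 3 bases and GAA on either strand, was held by 2197 of the 27025 genes (8.13%) and, among the score genes, by Ifit2. Irf7 had a sequence but neither motif in this window, and Usp18, Ly6a, Ly6e and Zbp1 had no entry. A comparison of motif shares between the genes higher and lower in score-high cells was void, since only 28 of the 41 and 32 of the 46 genes past 1.5-fold had a sequence.

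The score ran from 0 to 5421 counts per 1000000 UMIs (CPM) with a median of 1172, and it had no gap at either edge of the split. The highest score-low cell was at 936.9 CPM and the lowest score-middle cell at 940.4, and the highest score-middle cell was at 1568 beside the lowest score-high cell at 1570. The median score-high cell held 11 score UMIs, the median score-middle cell 7 and the median score-low cell 3, and 5 cells had none (2.10%, exact interval 0.686 to 4.83%). The exact interval of 61 of the 79 score-high cells reached down to the upper edge, and that of 75 of the 79 score-low cells reached up to the lower edge. The groups are therefore ends of a range, with many cells whose place near an edge was set by a few UMIs. The variance of the score UMIs over cells was 3.15 times that of counting alone, beside 6.97 times for the antiviral list, 8.59 for ribosomal genes and 11.6 for macrophage markers, which hold more UMIs.

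**Figure D1:**
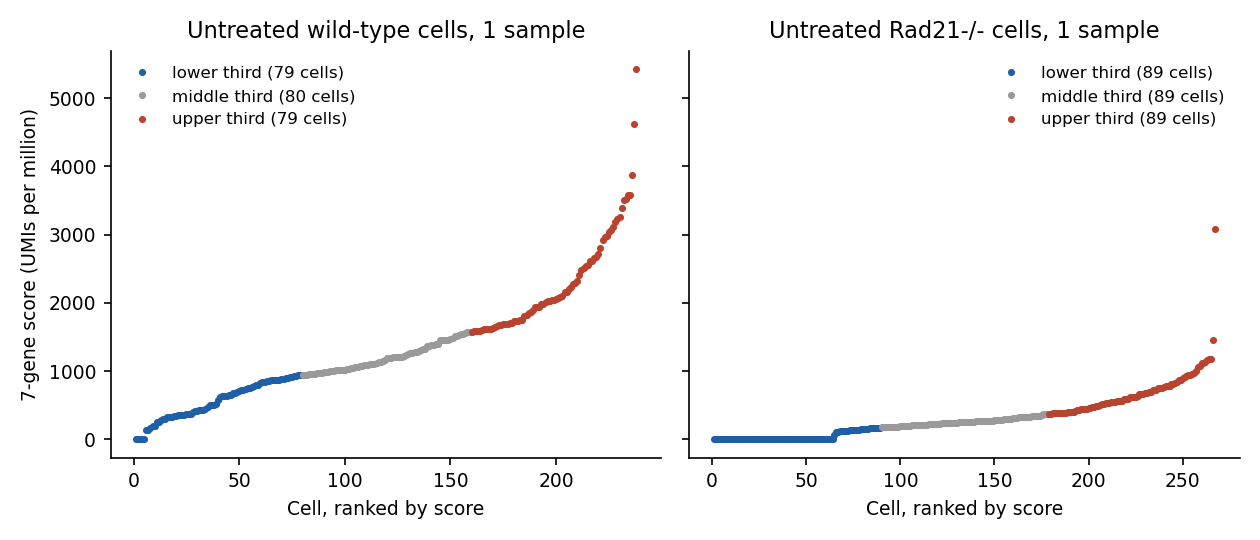
Score of each untreated cell in CPM, with cells ranked from low to high on the x axis, for wild-type (left) and Rad21-/- (right); each point is 1 cell, coloured by its part of the split. The wild-type scores run smoothly up to 5421 with 5 cells at 0, whereas 64 of the 267 Rad21-/- cells lay at 0.

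Depth and cell identity were similar at both ends of the split. The median cell had 5718 UMIs and 2712 genes among score-high and 5679 UMIs and 2655 genes among score-low cells, although the deepest score-low cell held 22785 UMIs and the deepest score-high cell 11315. All 18 listed macrophage markers were measured, and their summed level was 24389 CPM in score-high, 24964 in score-middle and 23418 in score-low cells. At least 1 UMI of Rad21 was found in 61 of 238 wild-type cells (25.6%, exact interval 20.2 to 31.7%) and 7 of 267 Rad21-/- cells (2.62%, 1.06 to 5.33%). Across the 6 samples the totals over all wells ran from 1417409 to 2195921 UMIs and the median cell from 5577 to 7056 UMIs. Without wells over 25000 UMIs the totals ran from 1197415 to 1734640 UMIs and the median cell from 5544 to 7043 UMIs. The wild-type sample at 2 h had the highest total with these wells and the lowest without them. No cell name was repeated and no 2 cells had identical counts.

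The column names put cells of both genotypes under the same 8 codes. These codes are taken here as library pools, and the pools differed in score. Pool 4 gave 5 score-high and 19 score-low cells and pool 5 gave 14 and 6, with median scores of 972.7 and 1589 CPM. The other 6 pools were more even, from 19 score-high and 14 score-low cells in pool 1 to 5 and 8 in pool 6. Results that turn on the pools are therefore given within them as well.

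Each score gene was higher in score-high than in score-low cells when the other 6 split them. When the cells were split without Ifit1, its level was 117.7 CPM in score-high, 45.3 in score-middle and 15.9 in score-low cells, a log2 ratio of 2.89 (1.81 to 4.18). In the same way Ifit3 was 2.09-fold higher (1.33 to 3.35), Usp18 1.92-fold (1.03 to 3.65), Ifit2 1.68-fold (1.12 to 2.54) and Rsad2 1.64-fold (1.07 to 2.54). The genes with the most UMIs differed least, Isg15 by 1.45-fold (1.19 to 1.75) and Irf7 by 1.23-fold (1.02 to 1.49). All 7 intervals lay above an equal level, but not all genes stepped down evenly. Ifit2 had 141.8, 57.2 and 84.6 CPM from score-high to score-low cells, and score-middle and score-low cells were nearly level for Isg15 (385.9 and 387.1 CPM) and Rsad2 (76.9 and 76.7 CPM). Rsad2 was found in 29.1% of score-high and 31.6% of score-low cells.

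The other antiviral genes were higher in score-high cells. Outside the score genes, 84 antiviral effector genes of a list of 86 had a row. Their summed level was 14171 CPM in score-high, 12110 in score-middle and 10387 in score-low cells, a log2 ratio of score-high over score-low of 0.45 (0.39 to 0.50). Single cells overlapped widely all the same, from 5654 to 27503 CPM among score-high cells with a median of 14093, and from 3101 to 18741 CPM among score-low cells with a median of 10615.

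Of the 67 list members with at least 20 UMIs over score-high and score-low cells together, 27 were at least 1.5-fold higher and 2 at least 1.5-fold lower, where 9.13% and 14.9% of all 7813 genes at that depth were. Their median log2 ratio was 0.53 and 56 of the 67 lay above 0, against a median of -0.06 over all genes, of which 45% lay above 0. At 100 UMIs or more, 6 of 23 members were at least 1.5-fold higher and none was lower by that much, with a median log2 ratio of 0.47 beside 0.00 over all 1431 genes.

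In all, 41 of those 1431 genes were at least 1.5-fold higher (2.87%) and 46 at least 1.5-fold lower (3.21%). A log2 ratio of 1.5-fold is 0.58, and 50 UMIs in each of 2 equal sums give an interval of -0.60 to 0.60, so a gene near the minimum of 100 UMIs could pass by counting error. The genes named next are the 20 whose interval had the highest lower bound and the 10 whose interval had the lowest upper bound.

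**Figure D2:**
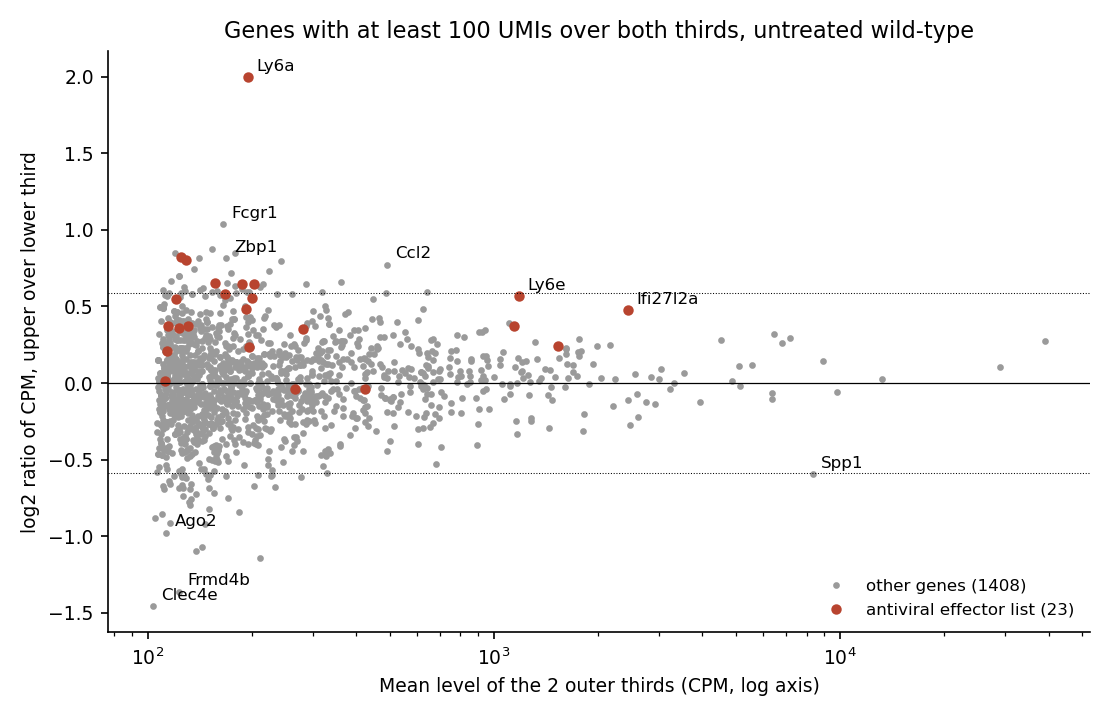
Each point is 1 of 1431 genes with at least 100 UMIs over score-high and score-low untreated wild-type cells, with its mean level in CPM on a log axis and its log2 ratio, score-high over score-low; dotted lines mark 1.5-fold. Ly6a stands alone at 2.00, 17 of the 23 antiviral effector genes (red) lie between 0 and the 1.5-fold line or just below 0, and Clec4e is lowest at -1.46.

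Ly6a had the highest ratio of the 1431 genes. This gene encodes the surface protein Sca-1, which interferons induce, and lies at chr15:74994877-74998031 in GRCm38.p6. It had 135 UMIs in score-high, 62 in score-middle and 39 in score-low cells, which is 311.3, 121.3 and 77.9 CPM and a log2 ratio of 2.00 (1.47 to 2.55). In these sums score-high cells stood apart and score-middle cells lay nearer the score-low ones. The gene was found in 37 of 79 score-high and 21 of 79 score-low cells, was higher in 7 of 8 pools, and had a log2 ratio of 1.77 without the 1 cell that held 22 UMIs. Over all alternatives run, its log2 ratio lay between 0.75 and 2.38.

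Further genes of the antiviral list stepped down from score-high to score-low cells. Ly6e, another Ly6 surface protein, had 1409, 1201 and 951.2 CPM in that order (log2 ratio 0.57, 0.39 to 0.74), and Ifi27l2a, a small interferon-induced protein, had 2834, 2500 and 2040 CPM (0.47, 0.35 to 0.60). Both were higher in 8 of 8 pools, and their many UMIs make their intervals narrow. Zbp1, on the sensor list and a sensor of nucleic acid in the Z form, had 93, 71 and 61 UMIs (0.81, 0.33 to 1.31) and was higher in 5 of 8 pools. Trim30a (0.82, higher in 5 of 8 pools) and the DNA-binding protein Ifi204 (0.80, higher in 7), both on the antiviral list, had intervals above 0 as well. So had 3 genes on no interferon list used here, the ubiquitin ligase Rnf213 (0.73), the predicted gene Gm12185 (0.66) and Psme2b (0.65), a gene related to a proteasome activator subunit. Psme2b and other gene copies can share reads with near-identical genes, so their counts are uncertain.

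The rest of the 20 belonged to no antiviral list, and of these only Fcgr1 was on the macrophage marker list. There 1 of 18 measured members was at least 1.5-fold higher, beside 9.13% of all genes with 20 UMIs or more. The median log2 ratio of the list was 0.07. Fcgr1, the high-affinity IgG receptor, had 221.3 CPM in score-high, 103.7 in score-middle and 107.9 in score-low cells (log2 ratio 1.04, 0.54 to 1.55). Ly86 (MD-1, partner of the receptor CD180) had a log2 ratio of 0.80 (0.40 to 1.20) and was higher in 7 of 8 pools. Ms4a6c, at 0.88 (0.37 to 1.40), and Ms4a7, at 0.59 (0.25 to 0.94), were higher in only 5. Among chemokines for monocytes, Ccl2 had 268, 191 and 181 UMIs (0.77, 0.50 to 1.05, higher in 8 of 8 pools) and Ccl7 had 100, 70 and 64 (0.85, 0.38 to 1.33). Also among the 20 were the chloride channel Clic1 (0.59), the lysosomal Lamtor5 (0.85) and the ribosomal Rpl14 (0.55). So were the predicted genes Gm15725 (0.59) and Gm15425 (0.82). Clic1 was higher in 5 of 8 pools, Rpl14 in 6, and Lamtor5, Gm15725 and Gm15425 in 7.

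**Figure D3:**
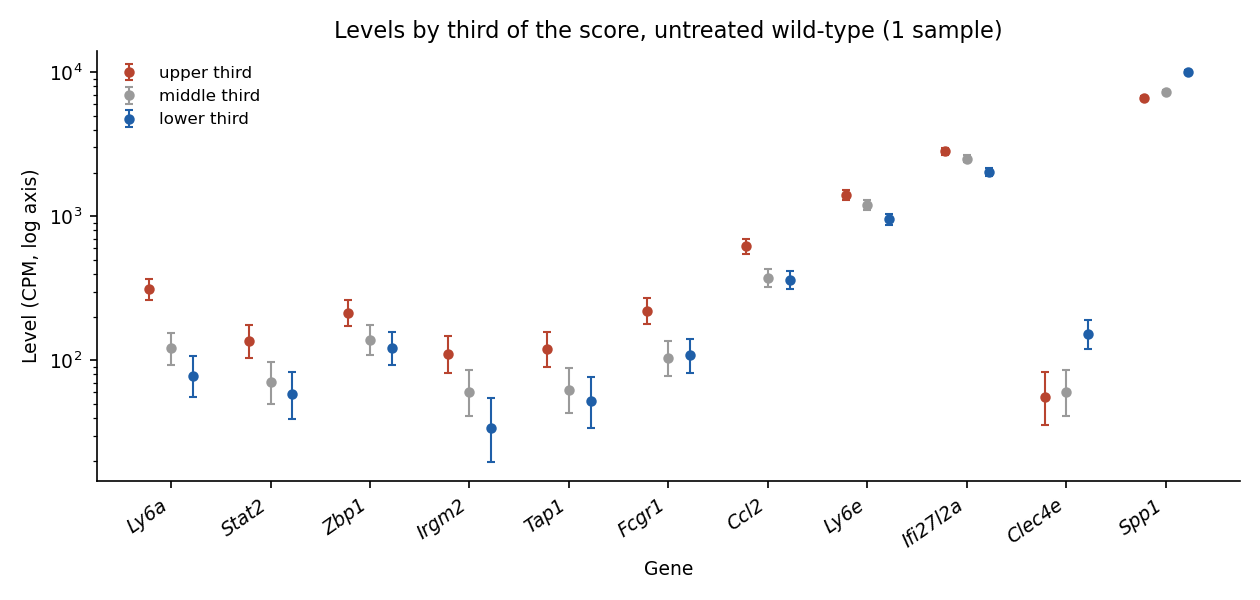
Level of 11 named genes in CPM on a log axis in score-high (red), score-middle (grey) and score-low (blue) untreated wild-type cells, with points for the summed level and bars for the exact 95% Poisson interval. The first 9 genes are highest in score-high cells, whereas Clec4e and Spp1 are highest in score-low cells.

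Below 100 UMIs, further listed effectors had high ratios with wide intervals. Ifit3b had 27, 16 and 5 UMIs in score-high, score-middle and score-low cells, a log2 ratio of 2.64 (1.24 to 4.37), but it is a near copy of the score gene Ifit3 and both can share reads. Isg20, an exonuclease that degrades viral RNA, had 32, 12 and 13 UMIs (1.51, 0.54 to 2.56), and Cd274, which encodes PD-L1, had 15, 6 and 5 (1.79, 0.26 to 3.61). Ifi27 went the other way with 7, 17 and 29 UMIs (-1.84, -3.28 to -0.62).

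The interferon genes themselves gave no signal. Ifnb1 had 0 UMIs in all 238 cells, which allows up to 2.08 CPM (3 counts of 1445275 UMIs), and it was the only 1 of 16 listed interferon genes with a row. The name of a tonic interferon-high state thus rests on the target genes alone, and the cells are called by their score here.

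The intervals of the receptor chains and kinases spanned 0, whereas Stat2 was higher. Ifnar1 had a log2 ratio of 0.32 (-0.93 to 1.58), Ifnar2 of -0.41 (-1.07 to 0.24), Jak1 of 0.17 (-0.49 to 0.84) and Tyk2 of 0.11 (-1.05 to 1.26). Stat2 had 59 UMIs in score-high, 36 in score-middle and 29 in score-low cells, a log2 ratio of 1.23 (0.57 to 1.93), and was higher in 8 of 8 pools. Irf9, the DNA-binding part of ISGF3, had 24, 33 and 32 UMIs (-0.21, -1.04 to 0.60). Ifngr1, a chain of the receptor for interferon gamma, had 41, 33 and 22 UMIs (1.10, 0.32 to 1.92). Over the receptor and JAK-STAT list, 4 of 13 measured members were at least 1.5-fold higher and 1 lower, beside 9.13% and 14.9% of all genes at that depth, with a median log2 ratio of 0.14 and a summed ratio of 0.27 (0.07 to 0.46).

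The IRF family other than Irf7 had intervals that span 0. None of its 6 members with 20 UMIs or more passed 1.5-fold, where 9.13% of all genes at that depth were higher and 14.9% lower. The summed log2 ratio was 0.16 (-0.16 to 0.48). Irf8, a macrophage lineage factor, was at 0.48 (-0.13 to 1.10), Irf1 at 0.45 (-0.83 to 1.75), Irf5 at -0.08 (-0.87 to 0.70) and Irf3 at 0.58 (-0.72 to 1.93). These intervals are wide enough to hold a 1.5-fold difference for most members.

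Sensors of cytosolic RNA and DNA, several of them interferon-induced, were higher in part. Ifih1 (MDA5) had 23, 8 and 10 UMIs (log2 ratio 1.41, 0.28 to 2.64), Ddx58 (RIG-I) had 52, 49 and 35 (0.78, 0.13 to 1.44) and Tmem173 (STING) had 18, 14 and 7 (1.57, 0.24 to 3.07). The LPS receptor Tlr4 was at -0.10 (-0.84 to 0.64), Mb21d1 (cGAS) had 6, 8 and 9 UMIs, and Tlr3 had 5, 6 and 1. Of 14 measured list members 5 were at least 1.5-fold higher, 1 lower and 8 above 0, beside 9.13%, 14.9% and 45% of all genes at that depth, with a median of 0.13 and a summed log2 ratio of 0.34 (0.14 to 0.55).

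Guanylate-binding and immunity-related GTPases, which act on the vacuoles of intracellular microbes, were higher as a group. The list held 578.7, 403.0 and 283.8 CPM in score-high, score-middle and score-low cells (log2 ratio 1.03, 0.73 to 1.34), higher in 8 of 8 pools. All 6 measured members lay above 0 and 3 were at least 1.5-fold higher, beside 45% and 9.13% of all genes with 20 UMIs or more. Their median log2 ratio was 0.73. Those 3 were Irgm2 with 48, 31 and 17 UMIs (3.26-fold, 1.84 to 6.04), Igtp with 18, 12 and 8 (log2 ratio 1.38, 0.10 to 2.79) and Ifi47 with 38, 36 and 24 (0.87, 0.09 to 1.67). Irgm1 had 46, 51 and 41 UMIs (0.37, -0.27 to 1.02).

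Within MHC class I antigen presentation, both genes of the peptide transporter were higher. Tap1 had 52, 32 and 26 UMIs (log2 ratio 1.21, 0.50 to 1.94) and its partner Tap2 26, 21 and 15 (1.00, 0.03 to 2.02). The heavy chain H2-D1, with 715, 826 and 808 UMIs, had a log2 ratio of 0.03 (-0.12 to 0.18). Over the list 3 of 18 measured members were at least 1.5-fold higher and 1 lower, beside 9.13% and 14.9% of all genes at that depth. Of the 18, 16 lay above 0, beside 45% of all genes, and the summed log2 ratio was 0.24 (0.18 to 0.30). Of the genes that attach Isg15 to proteins or remove it, 2 of 5 measured members were at least 1.5-fold higher and none lower. The shares over all genes were the same 9.13% and 14.9%. Those 2 were Ube2l6 at 0.79 and Herc6 at 0.62, both with intervals across 0, and the summed log2 ratio was 0.29 (-0.06 to 0.63).

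Some large ratios came from single cells. Of the 71 UMIs of the chemokine Ccl5 in score-high cells, 65 lay in 1 cell, and without that cell the log2 ratio turned from 2.55 (1.71 to 3.49) to -0.99. That cell also held 13 of the 42 score-high UMIs of Saa3, an acute-phase gene with 42, 9 and 14 UMIs. A second score-high cell held 25 of 35 UMIs of H2-Aa, 15 of 27 of H2-Ab1, 23 of 26 of H2-Eb1 and 36 of 120 of Cd74, the genes of MHC class II and its invariant chain, over all 238 cells. Of macrophage genes it held 8 UMIs of Lyz2, 1 of Adgre1 and 0 of Csf1r among 3343 UMIs in all. The Ccl5 cell held 5, 1 and 0 of the same genes among 7249. Counts in a typical cell are not given, so these values do not name a cell type. The summed MHC class II ratio was 2.63 (2.07 to 3.23) with the second cell and 1.29 without it.

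Cxcl10, a chemokine that interferons induce, had 49, 3 and 5 UMIs, of which 27 lay in 1 score-high cell. It was 11.3-fold higher (4.53 to 36.4), its log2 ratio without that cell was 2.36, and 13 score-high against 5 score-low cells had any UMI. The cells with most Ccl5, MHC class II and Cxcl10 UMIs were 3 different cells, at ranks 49, 36 and 24 of 238 by score.

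Over the chemokine list, 6 of 10 measured members were at least 1.5-fold higher and none lower, beside the same 9.13% and 14.9% of all genes, with a median log2 ratio of 0.76 and a summed ratio of 0.42 (0.30 to 0.54), or 0.08 at its lowest over the alternatives run. The 6 included Ccl5, whose ratio rests on 1 cell. Ccl6 went the other way with 283.6, 236.7 and 381.7 CPM (-0.43, -0.77 to -0.09, and -0.14 without its 1 highest cell), and Ccl3 had a log2 ratio of -0.12 (-0.47 to 0.24). Of 16 measured inflammatory targets of NF-kappaB 2 were at least 1.5-fold higher and 4 lower, near the 9.13% and 14.9% of all genes at that depth, and the summed ratio was 0.10 (-0.09 to 0.28). Tnf had 4, 3 and 4 UMIs and Il1b had 0 in all cells, so neither could be compared at this depth. Within this list Zfp36, which degrades inflammatory mRNA, had 22, 23 and 9 UMIs (2.82-fold, 1.25 to 6.96) and the activation marker Cd83 had 4, 6 and 18 (log2 ratio -1.96, -3.99 to -0.36).

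Of the 10 genes named as lower, Clec4e was furthest down. Clec4e (Mincle) encodes a receptor for mycobacterial glycolipid and lies at chr6:123281789-123289871 in the same build. It had 24 UMIs in score-high, 31 in score-middle and 76 in score-low cells, which is 55.3, 60.6 and 151.9 CPM and a log2 ratio of -1.46 (-2.18 to -0.78). In these sums score-low cells stood apart from the others. The gene was found in 16 of 79 score-high, 15 of 80 score-middle and 22 of 79 score-low cells, so most score-low cells held none. Its log2 ratio was -1.25 without the 1 score-low cell that held 11 UMIs, and it was lower in score-high cells in 7 of 8 pools.

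Spp1, which encodes the secreted protein osteopontin, was the most abundant gene of this group. It had 6626 CPM in score-high, 7246 in score-middle and 10024 in score-low cells (log2 ratio -0.60, -0.66 to -0.53) and was lower in 7 of 8 pools. Spp1 held 2874 of the 6396 score-high and 5016 of the 9549 score-low UMIs of the alternative-activation list, whose summed log2 ratio was -0.37 (-0.42 to -0.33). Of the 13 list members measured, none was 1.5-fold higher and Spp1 alone was 1.5-fold lower. Of all genes with 20 UMIs or more, 9.13% and 14.9% were. The median log2 ratio of the list was -0.11, and 4 of the 13 lay above 0, beside 45% of all genes at that depth. The mannose receptor Mrc1 was at 0.06 (-0.27 to 0.39), and Cd9 had 226, 270 and 344 UMIs (-0.40, -0.65 to -0.15).

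The other lower genes were less abundant. Frmd4b, a scaffold protein gene, had 30, 62 and 89 UMIs (log2 ratio -1.36, -2.01 to -0.75), Rilpl2 38, 51 and 94 (-1.10, -1.68 to -0.54) and the phosphatase gene Ppm1l 40, 69 and 97 (-1.07, -1.64 to -0.53). Ago2, the slicer of RNA interference, had 33, 34 and 75 UMIs (-0.98, -1.62 to -0.37) and was lower in 8 of 8 pools. Frmd4a (-0.91) and F630206G17Rik (-0.84) followed. The histone gene Hist1h2aa had 131.4, 88.0 and 289.8 CPM, found in 12 score-high and 22 score-low cells (-1.14, -1.61 to -0.69) and was lower in only 4 pools. Gm26917 had 61 of its 96 score-low UMIs in 1 cell, and without that cell its ratio turned from -0.92 to 0.53.

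Cell cycle genes did not differ steadily. The S-phase list had a summed log2 ratio of 0.04 (-0.15 to 0.22), while the mitosis list was at -0.28 (-0.45 to -0.12), or -0.09 without its 1 highest cell, and was higher in 3 of 8 pools. Cholesterol synthesis (0.01, -0.18 to 0.20), ribosomal proteins (0.06, 0.03 to 0.09), macrophage markers (0.06, 0.02 to 0.10), mitochondrial transcripts (-0.06, -0.10 to -0.02) and immediate-early genes (0.19, 0.03 to 0.36) all lay closer to 0 than the antiviral list.

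Markers of most other cell types were few in score-high and score-low cells alike. The neutrophil list, with 3 of 12 genes having a row, had 2 UMIs in score-high and 3 in score-low cells, the conventional dendritic cell list (4 of 9) 10 and 15, the B cell list (4 of 8) 28 and 37, the mast cell and basophil list (1 of 6) 8 and 11, the stroma list (6 of 7) 10 and 12, and the T and NK cell list (3 of 10) 20 and 10. S100a8, Camp, Fscn1, Col1a1 and Sparc were at 0. The monocyte list (2373 against 1994 CPM, log2 ratio 0.25) consisted almost wholly of S100a4, and the erythroid and megakaryocyte list (0.45) of Pf4. The plasmacytoid list (0.29) had 705 UMIs in score-high and 665 in score-low cells, of which 559 and 499 came from Bst2, which interferon induces in many cells. The part of these markers in the differences was not tested.

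The antiviral sum was above that of score-low cells in each of the 8 pools, though in pool 6 the interval spanned 0. The log2 ratio ran from 0.04 (-0.19 to 0.27) in pool 6 to 0.99 in pool 8, and was 0.47 in pool 4 and 0.41 in pool 5, the pools with the most uneven split. Across pools the score-high sums ran from 12255 to 16102 CPM and the score-low sums from 8094 to 11906, without overlap between these sums. A pool here holds as few as 3 score-low cells, and pools are batches of 1 sample and not replicates.

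**Figure D4:**
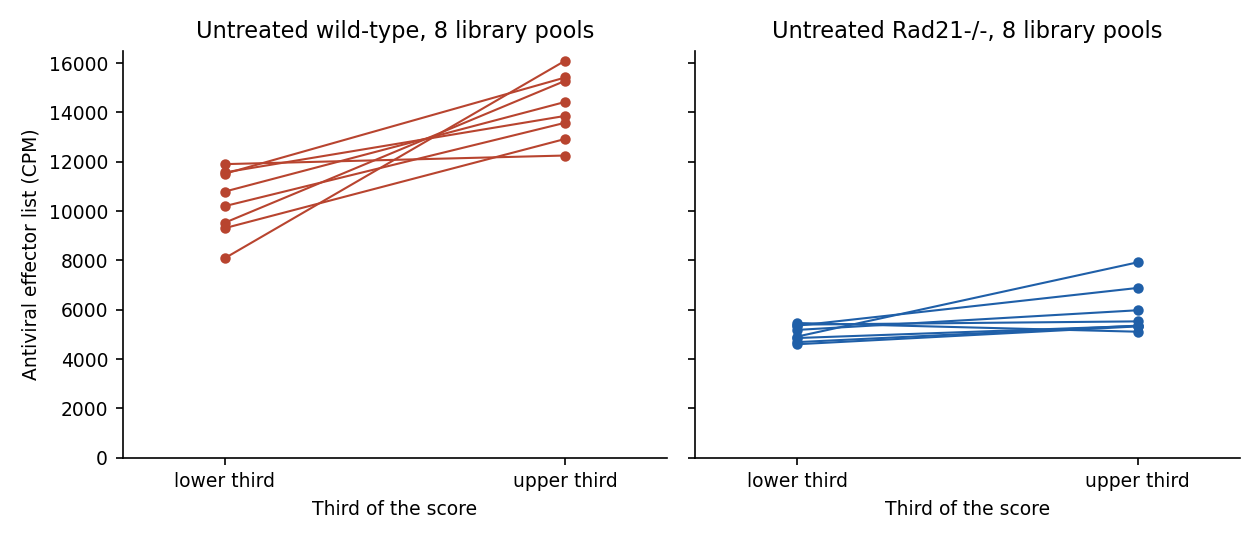
Summed level of the antiviral effector list, without the score genes, in CPM for the score-low (left in each panel) and score-high cells of each of 8 library pools, joined by a line, in wild-type (left) and Rad21-/- (right) cells. All 8 wild-type lines go up, as do 7 of 8 Rad21-/- lines, and the Rad21-/- levels lie below the wild-type levels.

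The split was repeated in the untreated Rad21-/- sample, which the rule did not use but whose cells shared the pools. Its score had a median of 251.8 CPM, and 64 of 267 cells had none (23.97%, 19.0 to 29.6%). The median score-high, score-middle and score-low cell held 4, 1 and 0 score UMIs, so the 3 groups of 89 cells are separated less surely than in wild-type. The antiviral list had 5924, 5189 and 5097 CPM (log2 ratio 0.22, 0.14 to 0.29), higher in 7 of 8 pools. Even the Rad21-/- score-high sums, from 5113 to 7925 CPM over pools, lay below every wild-type score-low sum, from 8094 to 11906. Single cells overlapped, from 2885 to 15899 CPM among Rad21-/- score-high and 3101 to 18741 CPM among wild-type score-low cells. Each genotype was 1 sample.

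Among all genes with at least 100 UMIs in Rad21-/- cells, 2.43% were at least 1.5-fold higher and 0.849% lower. Among the genes named from wild-type, most of the higher ones lay above 0 in Rad21-/- cells too. Of the 41 genes at least 1.5-fold higher in wild-type, 40 had 20 UMIs or more, 28 lay above 0 and 7 were at least 1.5-fold higher, beside 51.8% and 11.2% of all genes at that depth. Their median log2 ratio was 0.17. Of the 46 lower genes 44 could be measured, and 21 lay below 0 with a median of 0.01.

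Single genes differed in how they repeated. Ms4a6c was at 0.86 (0.33 to 1.42) and Fcgr1 at 0.57 (0.05 to 1.10) in Rad21-/- cells, beside 0.88 and 1.04 in wild-type, and Ly6e was at 0.30 (0.04 to 0.56). Ly6a had 19 score-high and 17 score-low UMIs there (0.01, -1.02 to 1.04). Clec4e had 2 and 8 UMIs (-2.15, -5.43 to 0.17), whereas Spp1 was at 0.11 (0.04 to 0.18). The difference between the genotypes was not tested for any gene.

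**Figure D5:**
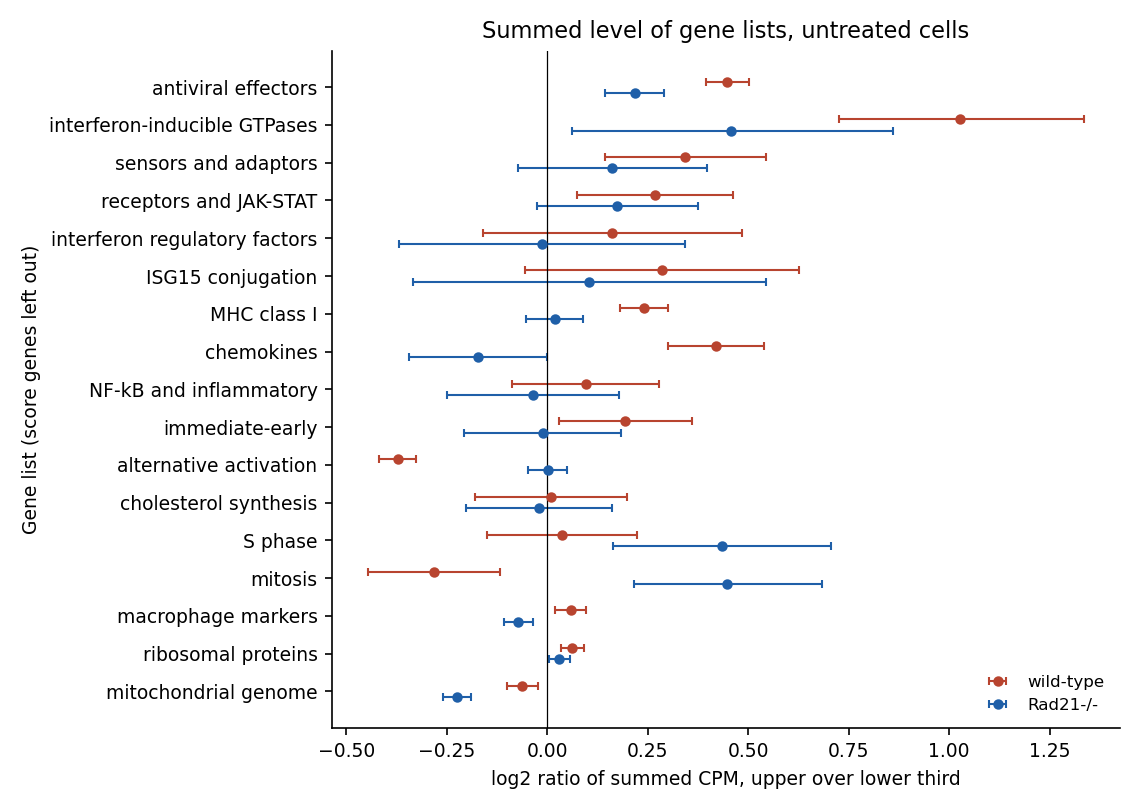
Log2 ratio of the summed CPM of 17 gene lists, score-high over score-low, in untreated wild-type (red) and Rad21-/- (blue) cells, with exact 95% counting intervals. The antiviral and GTPase lists have wild-type values of 0.45 and 1.03 against 0.22 and 0.46, the last with an interval across 0 once 1 cell is left out, while mitosis lies on opposite sides of 0.

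The lists also varied. In Rad21-/- cells the GTPases were at 0.46 (0.06 to 0.86), or 0.36 (-0.05 to 0.76) without their 1 highest cell. Their sum was higher in 5 of 8 pools. In these cells 1 of 3 measured members lay above 0, beside 51.8% of all genes with 20 UMIs or more. There MHC class I was at 0.02 (-0.05 to 0.09), chemokines at -0.17 (-0.34 to 0.00) and alternative activation at 0.00 (-0.05 to 0.05). Of the 53 antiviral members measured there, 13 were at least 1.5-fold higher and 1 lower, with a median of 0.16, beside 11.2% and 8.75% of all genes with 20 UMIs or more.

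The same genes were then read in samples that share no cells with the split. Between untreated and 8 h LPS Rad21-/- cells, 18 of the 41 higher genes were at least 1.5-fold higher at 8 h and 4 lower, where 11.8% and 14.7% of all 1431 genes were, with median log2 ratios of 0.36 and -0.06. Of the 46 lower genes, 5 were higher and 4 lower. Between 2 and 8 h of LPS in wild-type cells, 15 of the 41 were higher at 8 h and 5 lower (8.67% and 21.9% of all genes), against 4 and 14 of the 46. Each of these ratios compares 1 sample with 1 sample.

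The named genes fell into different patterns across conditions. Zbp1 had 155.7 CPM in untreated, 149.5 at 2 h and 375.3 at 8 h in wild-type cells, and 26.1 in untreated Rad21-/- cells. Ifi204 had 126.6, 168.7, 773.8 and 40.7 CPM in the same samples. Ly6a was at 163.3, 139.5 and 179.9 CPM over the LPS course and at 27.9 in untreated Rad21-/- cells, so it was much lower without Rad21 yet nearly level after LPS.

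Ly6e and Ifi27l2a were likewise lower in Rad21-/- cells and not higher after LPS, with 1177, 1151 and 1056 CPM and 2441, 1536 and 1701 CPM over the course, and 441.8 and 680.3 CPM in untreated Rad21-/- cells. Ccl2 had 442.8 CPM untreated, 7013 at 2 h and 5788 at 8 h in wild-type cells. In Rad21-/- cells it had 37.6 CPM untreated and 1841 at 8 h. Clec4e, the gene furthest down in score-high cells, was higher after LPS, with 90.6, 662.3 and 1643 CPM over the wild-type course. In Rad21-/- cells it had 10.3 CPM untreated and 1590 at 8 h. The untreated wild-type values in these series include the cells of the split.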

How the data were processed

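RNA of single cells from 6 samples was measured by MARS-seq. The authors assigned reads to wells by their barcodes, mapped them with GEMTools 1.7.0 to GRCm38.p4, merged near-identical UMIs of a gene and deposited raw UMI counts, without scaling, for 18429 genes in 1362 cells. Cells were put into samples by their column names.

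From these counts, wells with over 25000 UMIs were left out, UMIs were summed over the cells of each part of the split, and CPM used all UMIs of those cells. Log2 ratios are plain ratios of CPM with no pseudocount and exact Clopper-Pearson intervals, and levels carry exact Poisson intervals, all at 95%. No test was possible with 1 sample per group. Python 3.11.15, numpy 2.4.6, pandas 2.3.3, scipy 1.17.1 and matplotlib 3.10.9 were used, and the scripts were tested on simulated data. Promoters came from RefSeq (GRCm38.p6).

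Named were the 7 score genes, the 20 genes with the highest lower bound and the 10 with the lowest upper bound among genes with at least 100 UMIs, up to 4 highest and 3 lowest members of each list with at least 20 UMIs, and pathway genes chosen by role. Single cells holding most of a gene, and levels in the other samples, were added after seeing the values. Members, gene lists and rules were chosen with earlier results of these data known. Some items are not reported here. Alternatives changed the depth, the pools, the share of cells compared, the score, the minimum of UMIs and the fold.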

Additional observations from a re-analysis of the deposited data

Results flagged for a closer look

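Gene lists were set aside for a second look where the counting intervals of both genotypes lay on opposite sides of 0. The mitosis list had a log2 ratio, score-high over score-low, of -0.28 in wild-type and 0.45 in Rad21-/- cells. The macrophage marker list had 0.059 in wild-type and -0.072 in Rad21-/- cells. The difference between the genotypes was not tested in either case. Without its 1 highest cell, the mitosis ratio was -0.09 in wild-type and 0.24 in Rad21-/- cells.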

How the results depend on the processing

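Against 41 genes at least 1.5-fold higher and 46 lower, thinning each cell to 3800 UMIs (47 shallower cells left out in each genotype, 596 genes tested) gave 21 and 9. The number of genes tested, 1431 in the main comparison, changed with most settings. A minimum of 50 UMIs gave 175 and 264 of 3381 genes, and a minimum of 200 gave 8 and 7 of 574. A 2-fold limit gave 2 and 5 of 1431. Comparing all cells above with all below the median gave 26 higher of 2457 genes. A score of Ifit1, Ifit2, Ifit3 and Rsad2 gave 22 higher of 1439. Splitting within each pool gave 29 lower of 1405 genes and a score of mean log2(CPM + 100) gave 25 of 1433. Leaving out 1 pool at a time gave 27 to 45 higher genes, with 27 of 987 without pool 2. Lower genes then numbered 29 to 46, with 29 of 1058 without pool 4 and 30 of 987 without pool 2.

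The antiviral log2 ratio of 0.45 was 0.28 above against below the median, 0.56 between the 25% of cells at each end, 0.38 with the log2 score and 0.27 with the score of 4 genes, and 0.41 to 0.51 with 1 pool left out. In Rad21-/- cells 0.22 became 0.32 and 0.14 between those ends and with the 4 genes, and 0.14 to 0.29 with 1 pool left out.

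Some directions turned. Thinned, the wild-type mitosis list was at 0.029, the erythroid and megakaryocyte list at -0.069, ribosomal proteins at -0.00028 and Gm26917 at 1.00, and in Rad21-/- cells macrophage markers were at 0.051, Spp1 at -0.087 and Gm26917 at 0.87. Split within pools, mitosis was at 0.18 and Ccl5 at -1.28. Between those ends, mitosis was at 0.16 and mitochondrial transcripts at 0.057, and above against below the median Spp1 in Rad21-/- cells was at -0.10. Without Isg15 in the score, ribosomal proteins were at -0.020. With the 4 genes, macrophage markers were at -0.011, the monocyte list at -0.052, mitochondrial transcripts at 0.18, and Gm26917 at 0.24, and in Rad21-/- cells the plasmacytoid list was at -0.047, Spp1 at -0.20, Gm26917 at 1.76 and F630206G17Rik at 0.031. With 1 pool left out, mitosis ran from -0.49 to 0.038 (without pool 4), mitochondrial transcripts from -0.16 to 0.013 (without pool 2), Gm26917 from -1.26 to 1.51 (without pool 1) and Ccl5 from -1.25 (without pool 5) to 4.41 in wild-type, and Gm26917 from -2.69 to 2.29 (without pool 4) in Rad21-/- cells. Leaving out the cell with most UMIs of a gene or list, which was chosen after seeing the data, gave 0.53 for Gm26917 and -0.99 for Ccl5, and 2.36 for Gm26917 in Rad21-/- cells. The causes were not tested beyond these settings. Of 420 values of the 20 named higher genes under all alternatives, 391 moved by less than counting error and none turned. Of 210 values of the 10 named lower genes 4 turned, and of 441 values of the other wild-type lists 12 did. The named genes were picked by their ratios in these same cells. Keeping their direction was therefore favoured beforehand and does not test them.

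No paired analysis was possible because each condition was 1 sample. With so few UMIs per cell, a ratio is known to about 1.5-fold at 100 UMIs and less well below that, and the spread between animals cannot be seen.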
